A study of Danio rerio with 28 samples.

Results

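The regenerating ventricle of thraa+/- zebrafish was examined 7 days after resection of its apex (7 dpi), against the uninjured ventricle of the same genotype. These are 4 of the 28 libraries of the series, 2 pooled samples at 7 dpi and 2 without injury, chosen by the names of their columns in the count table. The fish were 4 to 6 months old, about 20% of the ventricle was cut away at the apex, and each library was made from at least 5 fish, with the injured zone collected after resection and the apex collected from uninjured hearts. The mutation is a short insertion in thraa, 1 of the zebrafish genes for thyroid hormone receptor alpha, that truncates the ligand-binding domain. It was carried by every fish in both groups. The labels of these libraries say only that thraa was knocked out, and the genotype thraa+/- is that of the series' design text and the paper. WT libraries at the same times (2 at 7 dpi and 2 uninjured) and thraa+/- libraries at 3 dpi and 15 dpi (2 each) were used only to show where the thraa+/- response at 7 dpi differed. The labels give the 2 pools of a group a number and nothing more. P-values therefore rest on the spread between pools within groups, estimated over all 24 time-course libraries together.

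Zebrafish regrow a resected ventricle from cardiomyocytes that lose part of their contractile apparatus and re-enter the cell cycle. A clot and then a provisional matrix fill the wound, epicardial and endocardial cells cover it, and macrophages clear debris and signal to the other cells. Thyroid hormone, acting through nuclear receptors that bind DNA with or without their ligand, favours the mature, non-dividing and oxidative cardiomyocyte in vertebrates.

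Gene counts totalled 15199123 and 15191277 at 7 dpi and 14469677 and 14603970 in uninjured hearts, and the 20 most abundant genes held 26.1% and 26.0% of the counts at 7 dpi, against 41.5% and 40.9% in uninjured hearts. Levels are given as CPM, the counts per 1000000 of the library size after normalisation by the TMM method, so that 1 count stood for 0.0511 and 0.0518 CPM at 7 dpi, and for 0.102 and 0.0988 CPM in uninjured hearts. A gene was called higher or lower where edgeR's quasi-likelihood test gave a Benjamini-Hochberg adjusted p under 0.05 over the 17837 tested genes and the change was at least 2-fold. By this rule 3987 genes were higher (22.4% of the tested genes) and 2518 lower (14.1%) at 7 dpi, and a log2 fold change is followed by its standard error. Over the tested genes the median change was 0.14 on the log2 scale. When the libraries were scaled by total counts instead of TMM, this median moved up by 0.89, and 8222 genes were called higher and 749 lower. The share of higher genes among the calls was thus 61.3% with TMM and 91.7% with totals. The 749 genes called lower with totals were among those called lower with TMM. Medians of gene lists are therefore given relative to that of all tested genes, on the log2 scale, and the totals-based counts stand beside the lists that fell. Symbols are those of the annotation, where capitals mark names taken from the human gene, and the Ensembl identifier is added where several zebrafish genes share a symbol.

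The targeted gene was counted at low levels in every library, which does not check the genotype, because a short insertion cannot be seen in a count of all the reads of a gene. The thraa gene (THRA, ENSDARG00000000151) had 4.75 and 5.44 CPM at 7 dpi, against 4.58 and 3.16 CPM in uninjured hearts. The gene was not called (log2 fold change 0.40 ± 0.26, edgeR adjusted p = 0.192), whereas scaling by totals called it higher (log2 fold change 1.296). All 4 libraries carried the markers of heart muscle. MYL7, the atrial and ventricular regulatory light chain of zebrafish, had 7561 and 8374 CPM at 7 dpi, against 31783 and 30782 CPM in uninjured hearts.

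**Figure D1:**
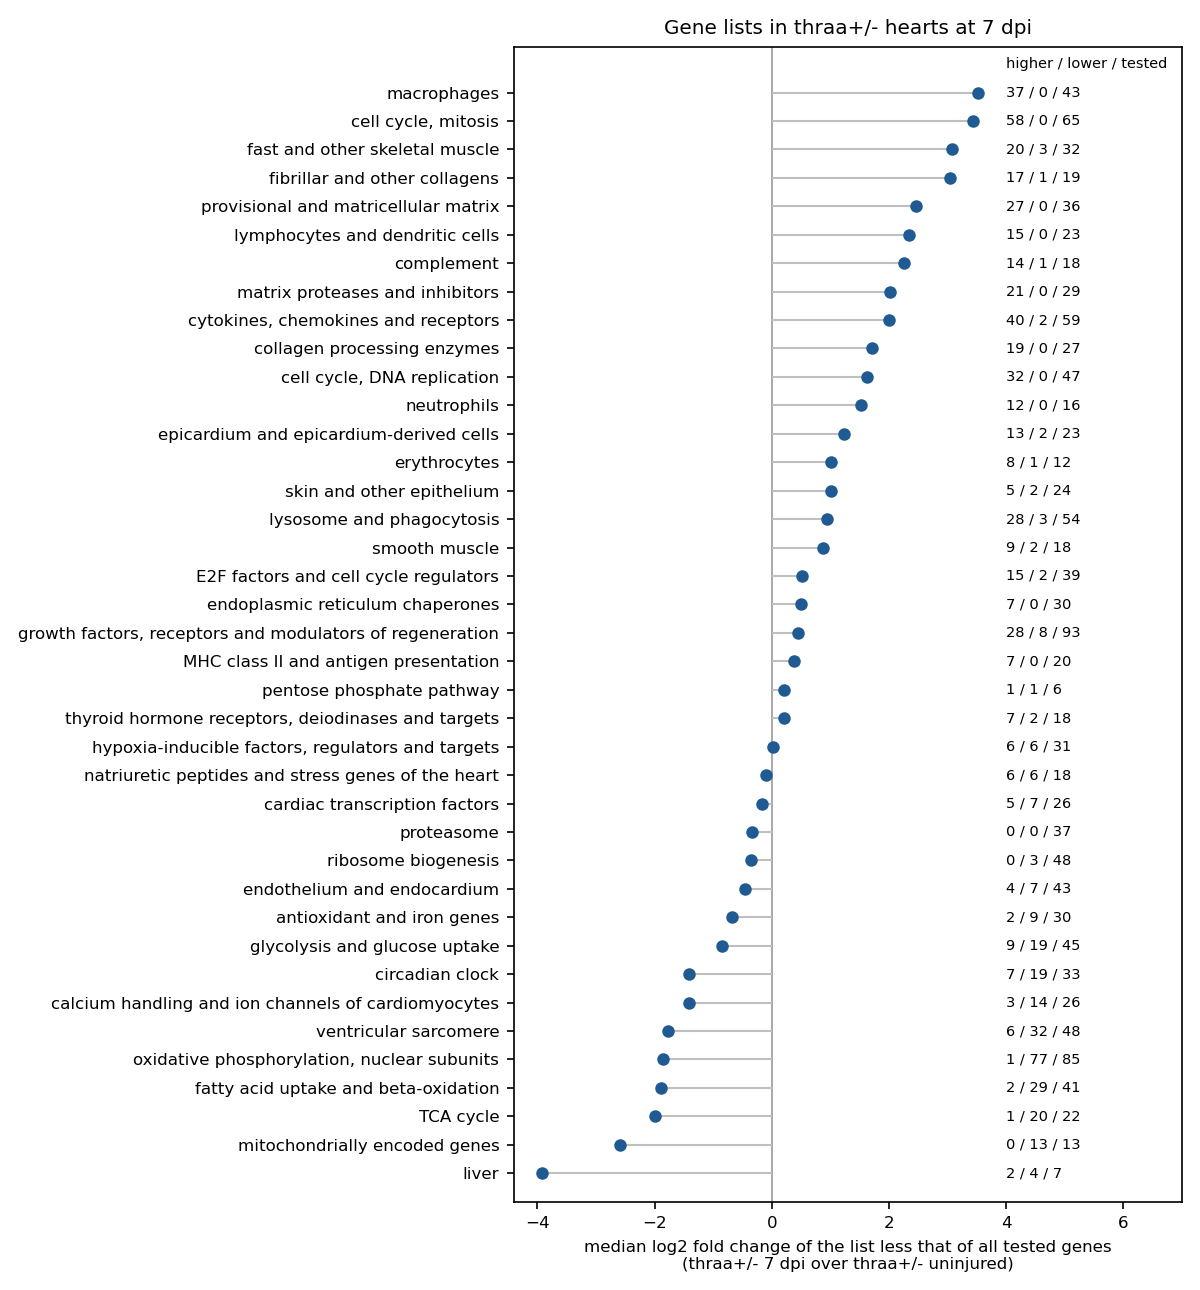
Each row is a gene list, and the point gives the median log2 fold change of its tested members in thraa+/- hearts at 7 dpi over uninjured hearts, less the median of all tested genes. The numbers at the right are the members called higher, called lower and tested. Lists of macrophages, mitosis, collagens and skeletal muscle lie more than 3 log2 units above the median of all genes, and those of respiration and the sarcomere lie below it by between 1.77 and 2.58. The size of the medians for mitosis and skeletal muscle depended on genes with few counts. The median of the liver list rests on 7 genes, of which 4 had no count in 1 of the groups, while its most abundant member, tfa, was higher at 7 dpi.

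Extracellular matrix genes were higher in all 4 lists of matrix and its enzymes. Of the 19 tested genes for fibrillar and other collagens, 17 were higher and 1 was lower, with a median 3.03 above that of all tested genes. Their summed level was 14647 and 14758 CPM in the regenerating libraries, against 1009.5 and 1082 CPM in the uninjured ones. Among them were the chains of collagen I, the main fibre of scar and tendon. COL1A1 had 3573 and 3637 CPM at 7 dpi, against 194 and 184 CPM in uninjured hearts, a log2 fold change of 4.26 ± 0.07 (edgeR adjusted p = 1.05e-37). COL1A2 had 2933 and 2927 CPM at 7 dpi, against 170.3 and 154 CPM in uninjured hearts, and col1a1a had 3459 and 3362 CPM at 7 dpi, against 207 and 193 CPM in uninjured hearts. All 3 were more than 10-fold higher in both regenerating libraries than in either uninjured one.

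Other collagens had smaller and larger ratios. COL12A1 (ENSDARG00000019601), a fibril-associated collagen of regenerating fins and hearts, had 241 and 242 CPM at 7 dpi and no count in either uninjured library, and was at least 802-fold higher when 3 counts per library are taken as the limit of detection. Its paralog COL12A1 (ENSDARG00000078322) had 1121 and 1129 CPM at 7 dpi, against 18.1 and 16.4 CPM in uninjured hearts. The fibrillar collagen gene col11a1b had 258 and 249.5 CPM at 7 dpi, against 0.204 and 0.198 CPM in uninjured hearts, a ratio of 1260.0 (exact 95% counting interval 494 to 4640.0). COL5A1, whose product starts the assembly of collagen I fibrils, had 724 and 691 CPM at 7 dpi, against 77.8 and 79.4 CPM in uninjured hearts. The exception was col15a1b, for a collagen of basement membranes, with 3.48 and 2.33 CPM at 7 dpi, against 6.72 and 6.13 CPM in uninjured hearts (log2 fold change -1.14 ± 0.26, edgeR adjusted p = 0.000216). It was no longer called without 7 dpi replicate 2 (log2 fold change -0.88) or when scaled by totals (-0.24).

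Enzymes that modify and cross-link collagen were higher as well, 19 of 27 with none lower (median 1.70 above all genes). LOX, lysyl oxidase, which cross-links collagen and elastin, had 40.9 and 40.2 CPM at 7 dpi, against 0.916 and 0.395 CPM in uninjured hearts. SERPINH1 (ENSDARG00000019949), the collagen chaperone of the endoplasmic reticulum, had 37.5 and 42.5 CPM at 7 dpi, against 5.5 and 4.74 CPM in uninjured hearts. BMP1 (ENSDARG00000028053), which cleaves the ends of procollagen, had 5.26 and 6.79 CPM at 7 dpi, against 0.102 and 0.296 CPM in uninjured hearts. P4HA1, a prolyl hydroxylase subunit, was not called, with 76.5 and 76.5 CPM at 7 dpi, against 55.5 and 50.5 CPM in uninjured hearts.

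Provisional and matricellular matrix genes followed the same pattern, with 27 of 36 higher and none lower (median 2.46 above all genes). FN1 (ENSDARG00000006526), for fibronectin, on which epicardial and muscle cells migrate in the zebrafish wound, had 4069 and 4057 CPM at 7 dpi, against 208 and 202 CPM in uninjured hearts (log2 fold change 4.31 ± 0.08). The second fibronectin gene, FN1 (ENSDARG00000019815), had 1004 and 1003 CPM at 7 dpi, against 18.6 and 17.1 CPM in uninjured hearts. POSTN (ENSDARG00000104267), for periostin of activated fibroblasts, had 1747 and 1797 CPM at 7 dpi, against 42.5 and 42.4 CPM in uninjured hearts. In each of these 3 genes both regenerating libraries lay far above both uninjured ones, where 77.8% of all tested genes had no overlap of the groups in either direction.

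That list also held genes near 0 in the uninjured heart. TNC (ENSDARG00000021948), for tenascin C of wounds and regeneration borders, had 38.9 and 39.8 CPM at 7 dpi, against 0.102 and 0 CPM in uninjured hearts, a ratio of 785 (exact 95% counting interval 141 to 31000.0). spp1, for osteopontin, had 13.24 and 11.14 CPM at 7 dpi and no count in uninjured hearts (at least 40.5-fold higher). SPARC, a calcium-binding protein of remodelled matrix, had 1004 and 1034 CPM at 7 dpi, against 164 and 161 CPM in uninjured hearts, and THBS4 (ENSDARG00000020072), a thrombospondin of tendon and injured heart, had 50.8 and 46.5 CPM at 7 dpi, against 0.102 and 0.198 CPM in uninjured hearts. hapln1a, for a hyaluronan link protein, did not pass the fold threshold, with 93.8 and 86.8 CPM at 7 dpi, against 56 and 50.6 CPM in uninjured hearts.

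Matrix proteases and their inhibitors were also higher, 21 of 29 with none lower (median 2.02 above all genes). MMP2, a gelatinase, had 849.5 and 858 CPM at 7 dpi, against 129.5 and 128 CPM in uninjured hearts. MMP14 (ENSDARG00000008388), for the membrane-bound protease that activates MMP2, had 243 and 241 CPM at 7 dpi, against 19.1 and 17.3 CPM in uninjured hearts. TIMP2 (ENSDARG00000075261), for an inhibitor of both, had 325 and 328 CPM at 7 dpi, against 8.96 and 8.2 CPM in uninjured hearts, and adam8a, a protease gene of leukocytes, had 94.3 and 91.6 CPM at 7 dpi, against 2.04 and 2.37 CPM in uninjured hearts.

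**Figure D2:**
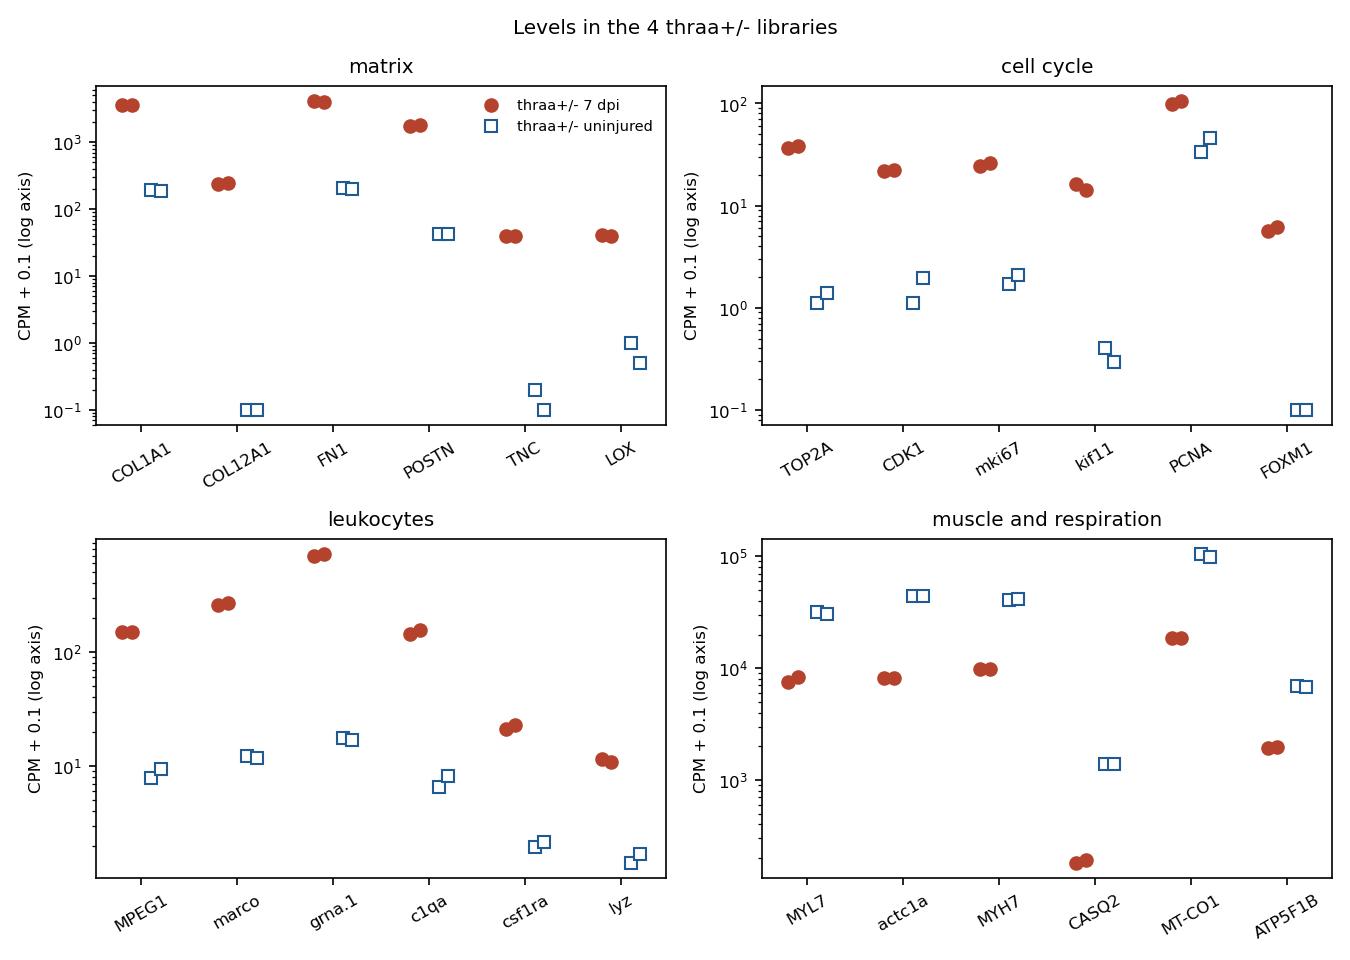
Levels of 24 genes in the 2 thraa+/- libraries at 7 dpi (filled circles) and the 2 uninjured thraa+/- libraries (open squares), in TMM-normalised CPM on a log axis with 0.1 CPM added, so that a library without counts lies at 0.1. In each panel of 6 genes the regenerating libraries lie on one side of the uninjured ones, above them for the matrix, cell cycle and leukocyte genes and below them for the muscle and respiration genes. The groups did not overlap in 77.8% of all tested genes.

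Cell cycle genes were higher from DNA replication through mitosis. Of 65 tested mitotic genes, 58 were higher and none was lower, with a median 3.43 above all genes. The size of this median depended on members with few counts, while its direction did not. A filter of at least 10 counts in every library kept 13 members, of which 8 were higher and none lower. Their median was 1.197 above all genes. With limma on log2(TPM + 1) the median of the list was 1.424 above. The list summed to 921 and 947 CPM at 7 dpi, against 343 and 349 CPM in uninjured hearts. Of 47 replication genes, 32 were higher and none was lower, with a median of 1.63. TOP2A, the topoisomerase that untangles chromosomes in mitosis, had 36.4 and 38.3 CPM at 7 dpi, against 1.02 and 1.28 CPM in uninjured hearts (log2 fold change 5.01 ± 0.21, edgeR adjusted p = 6.16e-24). CDK1, the kinase that drives entry into mitosis, had 22 and 22 CPM at 7 dpi, against 1.02 and 1.88 CPM in uninjured hearts. mki67, a marker of cycling cells, had 24.3 and 26.3 CPM at 7 dpi, against 1.63 and 1.98 CPM in uninjured hearts.

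Mitotic motors, kinases and cyclins behaved alike. kif11, a motor of the bipolar spindle, had 16.4 and 14.2 CPM at 7 dpi, against 0.305 and 0.198 CPM in uninjured hearts. AURKB, a kinase of chromosome segregation and cytokinesis, had 9.91 and 10.4 CPM at 7 dpi, against 0.916 and 0.79 CPM in uninjured hearts, and plk1 had 15.1 and 13.4 CPM at 7 dpi, against 1.12 and 1.68 CPM in uninjured hearts. CCNB2, a mitotic cyclin, had 3.37 and 2.64 CPM at 7 dpi and no count in uninjured hearts, at least 10-fold higher. CCNA2, the cyclin of S phase and G2, had 11.14 and 10.52 CPM at 7 dpi, against 0.305 and 1.19 CPM in uninjured hearts. The groups did not overlap in any of these genes, as in 77.8% of all tested genes.

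Replication genes had smaller ratios. PCNA, the sliding clamp of DNA polymerases, had 99.8 and 105 CPM at 7 dpi, against 33.7 and 45.4 CPM in uninjured hearts (log2 fold change 1.37 ± 0.10), with uninjured libraries that differed from each other by more than those at 7 dpi. RRM2 (ENSDARG00000020711), a subunit of the enzyme that makes deoxyribonucleotides, had 71.1 and 69.3 CPM at 7 dpi, against 6.41 and 5.53 CPM in uninjured hearts. MCM5, part of the replicative helicase, had 19 and 18.2 CPM at 7 dpi, against 7.74 and 4.54 CPM in uninjured hearts.

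Regulators of the cycle were more often higher than lower. Of 39 E2F factors, cyclins and inhibitors tested, 15 were higher and 2 lower (median 0.52 above all genes), where 22.4% and 14.1% of all tested genes were. FOXM1, a transcription factor of mitotic genes, had 5.57 and 6.06 CPM at 7 dpi and no count in uninjured hearts (at least 19.3-fold higher). E2F8, a repressor of the E2F family, had 7.82 and 5.18 CPM at 7 dpi, against 0.305 and 0.692 CPM in uninjured hearts. CCND1, the D-type cyclin of G1, had 20.3 and 20.5 CPM at 7 dpi, against 12.1 and 12.3 CPM in uninjured hearts and was not called (log2 fold change 0.74 ± 0.14, and 1.64 with a call when scaled by totals). Scaled by totals, 25 were higher and 0 lower. The 2 genes that were lower with TMM were inhibitors of cyclin-dependent kinases. CDKN1B (ENSDARG00000054271) had 42 and 38.7 CPM at 7 dpi, against 96.2 and 92.7 CPM in uninjured hearts, and cdkn1a had 6.03 and 2.8 CPM at 7 dpi, against 14.1 and 13.8 CPM in uninjured hearts.

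Genes of the cardiomyocyte were lower as a group. In bulk tissue fewer cardiomyocytes and less RNA per cardiomyocyte cannot be told apart, and this holds for every cell type below. Of 48 tested sarcomere genes, 32 were lower and 6 higher, with a median 1.77 below that of all genes. Scaled by totals, 18 were lower and 8 higher. The list summed to 52668 and 53626 CPM in the regenerating libraries, against 199146 and 199852 CPM in the uninjured ones. actc1a, for a cardiac actin, had 8207 and 8138 CPM at 7 dpi, against 44057 and 43990.3 CPM in uninjured hearts (log2 fold change -2.43 ± 0.08, edgeR adjusted p = 7.21e-28).

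Main motor genes fell by similar amounts. MYH7 (ENSDARG00000079782), a ventricular myosin heavy chain, had 9839 and 9743 CPM at 7 dpi, against 40793 and 41568 CPM in uninjured hearts, a log2 fold change of -2.07 ± 0.07. TTN (ENSDARG00000000563), for the giant spring of the sarcomere, had 614 and 603 CPM at 7 dpi, against 2424 and 2394 CPM in uninjured hearts, and TNNT2 (ENSDARG00000020610), cardiac troponin T, had 1795 and 1825 CPM at 7 dpi, against 5713 and 5771 CPM in uninjured hearts. Each of these 3 was at a lower level in both regenerating libraries than in either uninjured one, and the groups did not overlap in 77.8% of all tested genes.

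Some muscle genes moved further. myh6, the atrial myosin heavy chain gene, had 1.38 and 0.829 CPM at 7 dpi, against 19.2 and 19.1 CPM in uninjured hearts (log2 fold change -4.10 ± 0.21). ACTA1 (ENSDARG00000055618), for an alpha-actin, had 754 and 772 CPM at 7 dpi, against 8649 and 8492 CPM in uninjured hearts. CRYAB (ENSDARG00000101380), the small heat shock protein alpha B-crystallin of muscle, had 0.511 and 0.777 CPM at 7 dpi, against 22.1 and 19.5 CPM in uninjured hearts, and MYOZ2 (ENSDARG00000012311), a protein of the Z-disc, had 10.1 and 9.9 CPM at 7 dpi, against 99.7 and 114 CPM in uninjured hearts. Of the members that were higher, tpm1, a tropomyosin gene, had 64.1 and 64.8 CPM at 7 dpi, against 13.5 and 16.6 CPM in uninjured hearts, and obscna, for an obscurin, had 3.68 and 2.85 CPM at 7 dpi, against 0.712 and 0.198 CPM in uninjured hearts.

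Calcium handling and ion channel genes had 14 lower and 3 higher of 26 (median 1.419 below all genes). Scaled by totals, 6 were lower and 7 higher. CASQ2, the calcium store protein of the sarcoplasmic reticulum, had 182 and 194 CPM at 7 dpi, against 1383 and 1383 CPM in uninjured hearts (log2 fold change -2.88 ± 0.07). atp2a2a, the calcium pump that refills that store, had 1216 and 1153 CPM at 7 dpi, against 4662 and 4631 CPM in uninjured hearts. RYR2, the release channel, had 188 and 183 CPM at 7 dpi, against 398 and 421 CPM in uninjured hearts. GJA5 (ENSDARG00000040065), a connexin of fast conduction, had 22.9 and 22.4 CPM at 7 dpi, against 108 and 106 CPM in uninjured hearts, whereas GJA1, the connexin of working muscle and many other cells, was higher with 31.4 and 28.5 CPM at 7 dpi, against 9.87 and 10.6 CPM in uninjured hearts.

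Cardiac transcription factors split, with 5 higher and 7 lower of 26, where 22.4% and 14.1% of all tested genes were. NKX2-5, a factor of cardiac identity, had 66.1 and 70.1 CPM at 7 dpi, against 218 and 219 CPM in uninjured hearts (log2 fold change -1.68 ± 0.08, and -0.78 without a call when scaled by totals). TBX2 (ENSDARG00000018025), a T-box repressor that keeps non-chamber myocardium undifferentiated in embryos, had 8.74 and 5.86 CPM at 7 dpi, against 0.712 and 0.395 CPM in uninjured hearts. RUNX1, which marks injured zebrafish myocardium and endocardium, had 3.58 and 3.32 CPM at 7 dpi, against 0.509 and 0 CPM in uninjured hearts. HAND2 was not called, with 129 and 132 CPM at 7 dpi, against 105 and 109 CPM in uninjured hearts. Scaled by totals, 12 were higher and 0 lower, so the lower calls of this list rest on the scaling.

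Natriuretic peptide and stress genes changed in both directions, 6 higher and 6 lower of 18 (9 higher and 2 lower scaled by totals). nppa, the atrial natriuretic peptide gene, was not called, with 1862 and 2026 CPM at 7 dpi, against 1832 and 1739 CPM in uninjured hearts. nppb had 473 and 497 CPM at 7 dpi, against 166 and 179 CPM in uninjured hearts (log2 fold change 1.49 ± 0.08). nppc, for C-type natriuretic peptide, had 38.6 and 39.1 CPM at 7 dpi, against 0.509 and 0.593 CPM in uninjured hearts, and nppal had 64.8 and 64.9 CPM at 7 dpi and no count in uninjured hearts, at least 216-fold higher.

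ANKRD1 (ENSDARG00000075263), a stretch-induced cofactor of the border zone, had 63.1 and 70.2 CPM at 7 dpi, against 0.916 and 0.494 CPM in uninjured hearts (log2 fold change 6.55 ± 0.20). FHL2 (ENSDARG00000003991), a LIM-domain protein of cardiac muscle, was lower with 8.79 and 8.71 CPM at 7 dpi, against 27 and 28.3 CPM in uninjured hearts. ATF3, an immediate stress factor, was also lower, with 69.8 and 74.3 CPM at 7 dpi, against 442 and 441 CPM in uninjured hearts.

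Genes of mitochondrial energy supply were lower. Of 85 nuclear genes for oxidative phosphorylation, 77 were lower and 1 was higher (median 1.85 below all genes), and all 13 mitochondrially encoded genes were lower (median 2.58 below). Scaled by totals, 24 and 11 members of these lists were lower, and 2 and 0 higher. Mitochondrially encoded genes took 8.55% and 8.51% of all counts at 7 dpi, against 21.9% and 21.2% in uninjured hearts. MT-CO1, the core subunit of cytochrome oxidase, had 18736 and 18636 CPM at 7 dpi, against 104767 and 99023 CPM in uninjured hearts (log2 fold change -2.45 ± 0.07, edgeR adjusted p = 7.02e-30).

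The log2 fold changes of the tested nuclear subunits ran from -4.74 to 1.12. NDUFS1 of complex I had 259 and 251 CPM at 7 dpi, against 1186 and 1178 CPM in uninjured hearts, SDHA of complex II had 274 and 278 CPM at 7 dpi, against 962 and 939.5 CPM in uninjured hearts, and UQCRFS1, the iron-sulphur protein of complex III, had 305 and 316 CPM at 7 dpi, against 1615 and 1628 CPM in uninjured hearts. ATP5F1B, the catalytic subunit of ATP synthase, had 1947 and 1971 CPM at 7 dpi, against 6936 and 6807 CPM in uninjured hearts (log2 fold change -1.81 ± 0.07, and -0.91 without a call when scaled by totals). The single subunit that was higher was cox6a1, which encodes the isoform of this cytochrome oxidase subunit outside muscle in mammals, with 104 and 108 CPM at 7 dpi, against 49.8 and 47.5 CPM in uninjured hearts (log2 fold change 1.12 ± 0.09).

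Of 22 TCA cycle genes, 20 were lower and 1 higher (median 1.99 below all genes, and scaled by totals 1 higher and 10 lower). MDH2, mitochondrial malate dehydrogenase, had 1132 and 1188 CPM at 7 dpi, against 5683 and 5528 CPM in uninjured hearts, and FH (ENSDARG00000075132), fumarase, had 147 and 154 CPM at 7 dpi, against 875 and 826 CPM in uninjured hearts. Of 41 genes for fatty acid uptake and beta-oxidation, 29 were lower and 2 higher (median 1.89 below all genes, and 5 higher and 11 lower scaled by totals). HADHB, of the trifunctional enzyme, had 152 and 159.5 CPM at 7 dpi, against 829 and 839 CPM in uninjured hearts (log2 fold change -2.42 ± 0.08). CPT1B, which brings long-chain fatty acids to the muscle mitochondrion, had 52.1 and 51.8 CPM at 7 dpi, against 183 and 188 CPM in uninjured hearts, and acsl1b, an acyl-CoA synthetase gene, had 49.3 and 46.1 CPM at 7 dpi, against 463 and 460.1 CPM in uninjured hearts. The higher genes were ACSL4 (ENSDARG00000010752), with 59.4 and 64.1 CPM at 7 dpi, against 24.2 and 27.5 CPM in uninjured hearts, and PLIN2, a coat protein of lipid droplets, with 14.1 and 13.4 CPM at 7 dpi, against 1.73 and 2.08 CPM in uninjured hearts.

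Glycolytic genes did not move as 1 group. Of 45, 9 were higher and 19 lower (median 0.85 below all genes, and 13 higher and 7 lower scaled by totals). The share higher was near the 22.4% of all tested genes, and the share lower was above their 14.1%. Glucose transporters and the inducible hexokinase were among the genes that rose. SLC2A1 (ENSDARG00000007412), for a glucose transporter of most cells, had 41.3 and 38.2 CPM at 7 dpi, against 8.75 and 8.99 CPM in uninjured hearts (log2 fold change 2.16 ± 0.42). HK2 had 25.6 and 29.5 CPM at 7 dpi, against 3.15 and 3.66 CPM in uninjured hearts (log2 fold change 3.01 ± 0.14), whereas HK1 had 242 and 233 CPM at 7 dpi, against 709 and 705 CPM in uninjured hearts. slc2a3a had 4.75 and 4.3 CPM at 7 dpi and no count in uninjured hearts (at least 15-fold higher).

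Phosphofructokinase, which commits sugar to glycolysis, had isoform genes that moved in opposite directions. PFKL (ENSDARG00000099755), the liver form, had 4.5 and 5.86 CPM at 7 dpi, against 0.611 and 1.19 CPM in uninjured hearts, and PFKM (ENSDARG00000060797), a muscle form, had 318 and 322 CPM at 7 dpi, against 933 and 963 CPM in uninjured hearts. Pyruvate kinase was uneven too. PKM (ENSDARG00000099860) was lower with 34.2 and 35.5 CPM at 7 dpi, against 295 and 282 CPM in uninjured hearts (log2 fold change -3.05 ± 0.09), and PKM (ENSDARG00000099730) was not called with 1308 and 1302 CPM at 7 dpi, against 1760.2 and 1656 CPM in uninjured hearts. GPI (ENSDARG00000103826), the isomerase of the second step, had 94.1 and 103 CPM at 7 dpi, against 662 and 636 CPM in uninjured hearts. LDHA, which reduces pyruvate to lactate, had 712 and 711 CPM at 7 dpi, against 1493 and 1444 CPM in uninjured hearts, and LDHB, the form of oxidative muscle, had 905 and 922 CPM at 7 dpi, against 3931 and 3854 CPM in uninjured hearts. The 6 tested genes of the pentose phosphate pathway had 1 higher and 1 lower (4 higher and 0 lower scaled by totals).

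Leukocyte genes were higher. Of 43 tested macrophage genes, 37 were higher and none was lower (median 3.53 above all genes), and the list summed to 4226 and 4352 CPM in the regenerating libraries, against 596 and 597 CPM in the uninjured ones. Of its 46 genes, 3 had no count in either library at 7 dpi, against between 6 and 8 in an uninjured library. MPEG1 (ENSDARG00000055290), for perforin-2 and the standard macrophage marker of zebrafish, had 150.2 and 149 CPM at 7 dpi, against 7.74 and 9.29 CPM in uninjured hearts (log2 fold change 4.13 ± 0.10, edgeR adjusted p = 2.43e-32). marco, a scavenger receptor gene, had 256 and 267 CPM at 7 dpi, against 12.2 and 11.8 CPM in uninjured hearts. csf1ra, for the receptor of the macrophage growth factor, had 21.1 and 22.8 CPM at 7 dpi, against 1.83 and 2.08 CPM in uninjured hearts.

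grna.1, for a granulin secreted by macrophages, had 690.4 and 721 CPM at 7 dpi, against 17.6 and 16.8 CPM in uninjured hearts (log2 fold change 5.36 ± 0.10). Its neighbour in name, grna.2, had 178 and 185 CPM at 7 dpi, against 0.305 and 0.395 CPM in uninjured hearts. apoeb, the apolipoprotein E gene of lipid-handling macrophages, had 76.2 and 74.8 CPM at 7 dpi, against 1.12 and 0.692 CPM in uninjured hearts. The subunits of complement C1q, made largely by macrophages, rose together. c1qa had 144 and 157 CPM at 7 dpi, against 6.51 and 8 CPM in uninjured hearts, c1qb had 214 and 219 CPM at 7 dpi, against 12.5 and 11.7 CPM in uninjured hearts, and c1qc had 227 and 235 CPM at 7 dpi, against 16 and 14.2 CPM in uninjured hearts.

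Lysosomal genes rose in part, 28 higher and 3 lower of 54 (median 0.94 above all genes). CTSK, a collagen-degrading cathepsin, had 441 and 463 CPM at 7 dpi, against 74.8 and 75.1 CPM in uninjured hearts. NPC2 (ENSDARG00000096979), which carries cholesterol out of lysosomes, had 38.1 and 41.5 CPM at 7 dpi, against 1.02 and 1.28 CPM in uninjured hearts (log2 fold change 5.10 ± 0.19). TFEB, a transcription factor of lysosomal genes, was lower with 16.7 and 16 CPM at 7 dpi, against 42.3 and 48 CPM in uninjured hearts, and with totals in place of TMM no gene of this list was lower.

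Neutrophil genes had 12 of 16 higher and none lower. lyz, for lysozyme, had 11.3 and 10.7 CPM at 7 dpi, against 1.32 and 1.58 CPM in uninjured hearts, and npsn, an astacin-like protease of zebrafish neutrophils, had 7.56 and 8.76 CPM at 7 dpi, against 2.85 and 3.85 CPM in uninjured hearts. Of 23 tested genes of lymphocytes and dendritic cells, 15 were higher and none lower, at low levels. The list summed to 66.2 and 73.1 CPM in the regenerating libraries, against 23.8 and 26.9 CPM in the uninjured ones, and 18 and 15 of its 36 genes had no count in the uninjured libraries. cd4-1, of helper T cells and some myeloid cells, had 9.96 and 9.12 CPM at 7 dpi, against 0.611 and 0.0988 CPM in uninjured hearts. ighm, the heavy chain of immunoglobulin M, had 17.1 and 17.3 CPM at 7 dpi, against 7.63 and 9.09 CPM in uninjured hearts (log2 fold change 1.04 ± 0.15, and 0.93 without a call when uninjured replicate 1 was left out). The B cell receptor gene cd79a was not called, with 1.33 and 0.104 CPM at 7 dpi, against 0 and 0.296 CPM in uninjured hearts.

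Antigen presentation genes had 7 of 20 higher and none lower, where 22.4% and 14.1% of all tested genes were. cd74a, the invariant chain of MHC class II, had 838 and 819.5 CPM at 7 dpi, against 187 and 195 CPM in uninjured hearts, and mhc2dab, a class II chain, had 119 and 128 CPM at 7 dpi, against 21.3 and 21.8 CPM in uninjured hearts. ciita, the master regulator of class II in mammals, was not called, with 2.25 and 3.52 CPM at 7 dpi, against 1.53 and 1.58 CPM in uninjured hearts. PSMB8, an immunoproteasome subunit, had 46.1 and 42.2 CPM at 7 dpi, against 7.63 and 9.19 CPM in uninjured hearts, while none of the 37 genes of the constitutive proteasome list was called by edgeR or DESeq2, although 25 had an unadjusted p under 0.05 in edgeR (5 up and 20 down, all by less than 2-fold). PSMB5 had 94.4 and 104 CPM at 7 dpi, against 96.8 and 99.4 CPM in uninjured hearts.

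Of 59 tested cytokines, chemokines and receptors, 40 were higher and 2 lower (median 2.00 above all genes). il11a, an interleukin-6 family ligand that acts on cardiac fibroblasts and muscle of zebrafish, had 9.2 and 8.45 CPM at 7 dpi, against 0.204 and 0 CPM in uninjured hearts, a ratio of 88 (exact 95% counting interval 24.2 to 730.0). CXCL12 (ENSDARG00000037116), a chemokine of epicardium and stroma, had 94.8 and 88.5 CPM at 7 dpi, against 20.4 and 19.4 CPM in uninjured hearts, and its receptor CXCR4 (ENSDARG00000041959) had 115 and 108 CPM at 7 dpi, against 29.7 and 23.3 CPM in uninjured hearts. ccl34a.4, a chemokine gene, had 37.3 and 30.2 CPM at 7 dpi, against 0.305 and 1.48 CPM in uninjured hearts. The inflammatory cytokines stayed at low levels at this time. il1b had 4.14 and 2.85 CPM at 7 dpi, against 1.02 and 1.28 CPM in uninjured hearts, tnfa had 0.511 and 0.415 CPM at 7 dpi, against 0.102 and 0 CPM in uninjured hearts, and il6 was not called with 0.204 and 0.155 CPM at 7 dpi, against 0 and 0.0988 CPM in uninjured hearts. nfkbiab, an inhibitor of NF-kB, was lower, with 141 and 139 CPM at 7 dpi, against 344 and 360.4 CPM in uninjured hearts (log2 fold change -1.33 ± 0.08, and -0.43 without a call when scaled by totals).

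In the complement list 14 of 18 genes were higher and 1 was lower. c3a.1, for component C3, had 17.2 and 16.4 CPM at 7 dpi, against 5.5 and 5.04 CPM in uninjured hearts. The lower gene was cfd, for factor D, with 53.4 and 60.6 CPM at 7 dpi, against 117 and 118 CPM in uninjured hearts (log2 fold change -1.04 ± 0.08), and it was not called when scaled by totals (log2 fold change -0.14) or without 7 dpi replicate 1 (-0.95).

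Epicardial genes were mostly higher, 13 higher and 2 lower of 23 (median 1.24 above all genes). wt1b, a factor of the activated epicardium, had 51.5 and 45.7 CPM at 7 dpi, against 0.916 and 0.593 CPM in uninjured hearts (log2 fold change 6.00 ± 0.23, edgeR adjusted p = 1.22e-25). TBX18 had 44.2 and 42.1 CPM at 7 dpi, against 3.77 and 4.94 CPM in uninjured hearts, and TCF21, of the resting epicardium and its fibroblast descendants, had 34 and 28.6 CPM at 7 dpi, against 6.82 and 6.72 CPM in uninjured hearts. ALDH1A2, the retinoic acid enzyme that epicardium and endocardium switch on after injury, had 336 and 317 CPM at 7 dpi, against 69.5 and 63.2 CPM in uninjured hearts. SCX, scleraxis, a factor of tendon and of epicardial subsets, had 11.3 and 14.2 CPM at 7 dpi and no count in uninjured hearts (at least 42.3-fold higher).

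Smooth muscle genes had 9 higher and 2 lower of 18 (median 0.88 above all genes), although the list summed to 3099 and 3138 CPM in the regenerating libraries, against 4238 and 4268 CPM in the uninjured ones. TAGLN (ENSDARG00000045408), for transgelin of smooth muscle and contractile fibroblasts, had 506 and 524 CPM at 7 dpi, against 22.7 and 24.5 CPM in uninjured hearts (log2 fold change 4.45 ± 0.14). acta2, smooth muscle actin, had 157 and 153 CPM at 7 dpi, against 50.9 and 51.8 CPM in uninjured hearts, and MYH11 (ENSDARG00000009782) had 87.3 and 88 CPM at 7 dpi, against 32.1 and 24.4 CPM in uninjured hearts. Scaled by totals, 13 were higher and 0 lower. The members that were lower with TMM were MYL9 (ENSDARG00000008030), a regulatory light chain, with 742 and 737 CPM at 7 dpi, against 1869 and 1864 CPM in uninjured hearts, and smtnb, for a smoothelin, with 57.2 and 54.1 CPM at 7 dpi, against 146 and 129 CPM in uninjured hearts.

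Endothelial and endocardial genes had 4 higher and 7 lower of 43, a smaller share higher than the 22.4% of all tested genes and a share lower near their 14.1%, with a median 0.45 below all genes, and 14 higher and 0 lower when scaled by totals. kdrl, a receptor of vascular endothelial growth factor (VEGF), had 149 and 148 CPM at 7 dpi, against 309 and 302 CPM in uninjured hearts (log2 fold change -1.04 ± 0.07, and -0.14 without a call when scaled by totals), and cdh5, vascular cadherin, had 181 and 185 CPM at 7 dpi, against 293 and 284 CPM in uninjured hearts and was not called. flt1, the decoy VEGF receptor, had 59.5 and 60.9 CPM at 7 dpi, against 182 and 188 CPM in uninjured hearts. CLDN5 (ENSDARG00000043716), a tight junction protein of endothelium, had 6.85 and 6.84 CPM at 7 dpi, against 0.102 and 0 CPM in uninjured hearts, and plvapb, of fenestrated vessels, had 49.5 and 46.7 CPM at 7 dpi, against 22.5 and 16.8 CPM in uninjured hearts.

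Among the ligands, receptors and modulators linked to regeneration, 28 of 93 were higher and 8 lower, where 22.4% and 14.1% of all tested genes were. Ligands that act on cardiomyocytes or vessels differed from each other. HBEGF, a ligand of epidermal growth factor receptors, had 54.9 and 59.4 CPM at 7 dpi, against 0.916 and 0.395 CPM in uninjured hearts (log2 fold change 6.44 ± 0.24). NRG1, for neuregulin, a mitogen of zebrafish cardiomyocytes, was scarce, with 1.48 and 1.09 CPM at 7 dpi, against 0.102 and 0.395 CPM in uninjured hearts. igf2b, an insulin-like growth factor gene, had 75.2 and 75.1 CPM at 7 dpi, against 26.5 and 33.1 CPM in uninjured hearts.

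VEGF genes pointed in different directions. VEGFA (ENSDARG00000034700) was lower, with 141 and 147 CPM at 7 dpi, against 326 and 311 CPM in uninjured hearts (log2 fold change -1.14 ± 0.07, and -0.24 without a call when scaled by totals), while VEGFC, of lymphatic growth, was higher with 10.1 and 10.2 CPM at 7 dpi, against 4.28 and 4.35 CPM in uninjured hearts. tgfb1a had 39.4 and 34.1 CPM at 7 dpi, against 17.3 and 16.2 CPM in uninjured hearts, and TGFBR2 (ENSDARG00000034541), a receptor subunit for the same pathway, had 53.6 and 54.1 CPM at 7 dpi, against 117 and 122 CPM in uninjured hearts. BMP10 (ENSDARG00000109233), a bone morphogenetic protein of trabecular myocardium, was lower with 19.5 and 22.1 CPM at 7 dpi, against 206 and 212 CPM in uninjured hearts (log2 fold change -3.33 ± 0.09). dkk1b, a secreted inhibitor of Wnt signalling, had 3.94 and 3.37 CPM at 7 dpi, against 0 and 0.0988 CPM in uninjured hearts, and lepb, for leptin b, which zebrafish endocardium and epicardium switch on during regeneration, had 14.7 and 16.4 CPM at 7 dpi and no count in uninjured hearts (at least 51.6-fold higher).

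In the thyroid hormone list 7 genes were higher and 2 lower of 18, where 22.4% and 14.1% of all tested genes were. Scaled by totals, 10 and 2 members of this list were called. The side of its median depended on the processing, at 0.20 relative to all genes here and -0.085 when a gene had to have 10 or more counts in each library to be tested. The deiodinases, which activate or inactivate the hormone in tissue, changed in opposite directions. DIO1 had 9.2 and 10.8 CPM at 7 dpi, against 35.6 and 40.5 CPM in uninjured hearts (log2 fold change -1.93 ± 0.12, edgeR adjusted p = 3.41e-18). dio3b, an inactivating deiodinase gene, had 1.48 and 1.3 CPM at 7 dpi and no count in uninjured hearts (at least 4.62-fold higher), and DIO2, an activating one, had 0.664 and 1.09 CPM at 7 dpi and no count in uninjured hearts (at least 2.91-fold higher).

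Of the receptors, THRB had 19.7 and 21.6 CPM at 7 dpi, against 19.8 and 14.2 CPM in uninjured hearts and was not called. SLC16A10, a transporter of thyroid hormone and aromatic amino acids, had 45.5 and 46 CPM at 7 dpi, against 5.6 and 4.45 CPM in uninjured hearts (log2 fold change 3.19 ± 0.17). KLF9, a direct target of the hormone in many vertebrate tissues, had 34 and 31.8 CPM at 7 dpi, against 39.1 and 43.6 CPM in uninjured hearts and was not called (log2 fold change -0.33 ± 0.14). The sign of this change depended on the scaling, and with totals it was 0.57.

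Hypoxia genes had 6 higher and 6 lower of 31, near the 22.4% and 14.1% of all tested genes, and 16 higher and 3 lower when scaled by totals. EPAS1 (ENSDARG00000057671), for hypoxia-inducible factor 2 alpha, had 60.2 and 58.4 CPM at 7 dpi, against 212 and 233 CPM in uninjured hearts (log2 fold change -1.91 ± 0.07), and hif1aa had 15.8 and 14.2 CPM at 7 dpi, against 28.5 and 38 CPM in uninjured hearts. The gene that the study calls hif3a (hif1al in the annotation, ENSDARG00000100826) had 113 and 108 CPM at 7 dpi, against 204 and 193 CPM in uninjured hearts and was not called (log2 fold change -0.84 ± 0.07, and 0.055 when scaled by totals). Targets of the pathway rose in some cases. ADM (ENSDARG00000069027), for adrenomedullin, had 21.7 and 27.2 CPM at 7 dpi, against 0.712 and 1.09 CPM in uninjured hearts (log2 fold change 4.75 ± 0.27), and NDRG1 (ENSDARG00000032849) had 52.4 and 56.5 CPM at 7 dpi, against 21.9 and 15.3 CPM in uninjured hearts. epoa, for erythropoietin, was lower with 59.3 and 59 CPM at 7 dpi, against 229 and 223 CPM in uninjured hearts.

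The circadian clock list had 19 lower and 7 higher of 33 (median 1.41 below all genes, and 9 higher and 8 lower scaled by totals). NR1D1, the repressor REV-ERB alpha, had 8.94 and 6.43 CPM at 7 dpi, against 154 and 148 CPM in uninjured hearts (log2 fold change -4.29 ± 0.13, edgeR adjusted p = 2.27e-29). PER1 (ENSDARG00000012499) had 26.2 and 22.8 CPM at 7 dpi, against 102 and 103 CPM in uninjured hearts, and ciarta, a repressor of the clock, had 6.29 and 4.72 CPM at 7 dpi, against 76.8 and 75.7 CPM in uninjured hearts. Genes of the opposite phase were higher. BMAL1 (ENSDARG00000006791) had 20.6 and 24.1 CPM at 7 dpi, against 4.48 and 6.82 CPM in uninjured hearts, and nfil3-5 had 62.3 and 60.4 CPM at 7 dpi, against 3.56 and 3.56 CPM in uninjured hearts. The hour of the day at which hearts were taken is not given in the sources used here, and its part in these changes was not tested.

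Ribosome biogenesis genes were seldom called, with 3 of 48 lower and none higher (11 higher and 1 lower scaled by totals). ncl, for nucleolin, had 225 and 238 CPM at 7 dpi, against 231 and 226 CPM in uninjured hearts. Of 30 chaperones of the endoplasmic reticulum, 7 were higher and none lower, close to the 22.4% of all tested genes that were higher. Among them calr3b, a calreticulin gene, had 59.2 and 59.2 CPM at 7 dpi, against 12 and 15.6 CPM in uninjured hearts. Of 30 antioxidant and iron genes, 2 higher and 9 lower were called (median 0.67 below all genes), and the balance turned with totals, to 10 higher and 2 lower. SOD2, the superoxide dismutase of mitochondria, had 139.8 and 143 CPM at 7 dpi, against 529.9 and 521 CPM in uninjured hearts (log2 fold change -1.89 ± 0.09, and -0.99 without a call when scaled by totals). The cytosolic chaperone gene hsp90aa1.1, which zebrafish muscle uses to fold myosin, had 42.1 and 44.8 CPM at 7 dpi, against 1274 and 1287 CPM in uninjured hearts (log2 fold change -4.88 ± 0.08), 1 of the 15 largest falls.

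Markers of other tissues were present at different levels in the 2 groups. Fast skeletal muscle genes had 20 higher and 3 lower of 32, with a median 3.08 above all genes (1.98 with the 7 genes at 0 in 1 group set to their bound). This rested largely on genes with few or no counts before injury, as 13 and 12 of the 35 genes had no count in the uninjured libraries. A filter of at least 10 counts in every library leaves such genes out, so it cannot weigh their rise. Among the 5 members that it kept, 1 was higher and 2 were lower, with a median of -0.55 relative to all genes. With limma on log2(TPM + 1) the median of the list was 0.27 above. myhz2, a fast myosin heavy chain gene, had 10.7 and 12.7 CPM at 7 dpi and no count in uninjured hearts (at least 38.9-fold higher). pvalb1, for parvalbumin, had 25.5 and 29 CPM at 7 dpi, against 1.53 and 1.28 CPM in uninjured hearts, and MYL1 (ENSDARG00000014196), a fast light chain, had 7.1 and 8.76 CPM at 7 dpi, against 0.204 and 0.593 CPM in uninjured hearts. The markers set down for this tissue were myhz1.1, mylpfa, tnnt3a and ckma, and the levels of mylpfa and tnnt3a are not given here. myhz1.1 had 0.562 and 0.415 CPM at 7 dpi, against 0 and 0 CPM in uninjured hearts. The marker ckma, the muscle creatine kinase gene that cardiomyocytes share, was lower with 1769 and 1787 CPM at 7 dpi, against 7533 and 7427 CPM in uninjured hearts. The sum of the list, which includes ckma, was 2088 and 2119 CPM in the regenerating libraries, against 7744 and 7871 CPM in the uninjured ones. The part of skeletal muscle in the other results was not tested.

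Erythrocyte genes had 8 higher and 1 lower of 12, where 22.4% and 14.1% of all tested genes were. The lowest change in this list was -2.11 on the log2 scale. The markers set down for these cells were hbaa1, hbba1 and alas2, and the levels of hbba1 and alas2 are not given here. hbaa1, for an adult alpha-globin, had 17801 and 17924 CPM at 7 dpi, against 4368 and 4403 CPM in uninjured hearts (log2 fold change 2.03 ± 0.08), and SLC4A1 (ENSDARG00000012881), the anion exchanger of the red cell membrane, had 457 and 456 CPM at 7 dpi, against 103 and 96.4 CPM in uninjured hearts. The list summed to 19464 and 19594 CPM in the regenerating libraries, against 5136 and 5143 CPM in the uninjured ones, and the amount of blood in the samples was not measured. Of the defining liver markers, fabp10a had no count at 7 dpi, against 1.53 and 1.48 CPM in uninjured hearts, and no library held a count of APOB. tfa, for transferrin, held most of the summed CPM of the liver list at 7 dpi, with 437 and 451 CPM at 7 dpi, against 24.9 and 23.9 CPM in uninjured hearts. Of the defining skin markers, krt5 had 4.96 and 4.61 CPM at 7 dpi, against 0.814 and 0.296 CPM in uninjured hearts, epcam had 0 and 0.104 CPM at 7 dpi, against 0 and 0 CPM in uninjured hearts, and TP63 had 3.88 and 4.3 CPM at 7 dpi, against 17.9 and 16.5 CPM in uninjured hearts. The list of skin and other epithelium had 5 higher and 2 lower of 24, near the share of all tested genes that were higher, and summed to 3951 and 4073 CPM in the regenerating libraries, against 2635 and 2671 CPM in the uninjured ones, most of which was krt8 (a keratin gene singled out after its values were seen), with 2726 and 2760.4 CPM at 7 dpi, against 2109.7 and 2069.7 CPM in uninjured hearts.

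The 15 genes with the largest fitted rises among the tested genes with a symbol and a mean of at least 5 CPM included 12 that had no count in either uninjured library. The fitted change of such genes is no measured size, so their order, and their place above genes with measured rises, is not established. Besides those named above, nlrc11, a gene of the zebrafish family of NOD-like receptors, had 28.1 and 29.2 CPM at 7 dpi (at least 95.2-fold higher). In thraa+/- hearts at other times nlrc11 averaged 15.8 CPM at 8 hpi, 0 at 1 dpi and 3 dpi, and 0.0589 at 15 dpi. F13A1 (ENSDARG00000094832), annotated as the A chain of coagulation factor XIII, which cross-links fibrin, had 14.4 and 13.6 CPM at 7 dpi (at least 46.5-fold higher). This gene averaged 0.0335 CPM at 8 hpi and 0 at 1 dpi, 3 dpi and 15 dpi in thraa+/- hearts. mxb, an antiviral gene induced by interferon, had 11 and 14.2 CPM at 7 dpi (at least 42-fold higher). SALL1 (ENSDARG00000075891), a zinc finger factor, had 13.8 and 9.95 CPM at 7 dpi (at least 39.6-fold higher), and GRIA3 (ENSDARG00000037498), for a glutamate receptor subunit, had 11.4 and 9.48 CPM at 7 dpi (at least 34.8-fold higher). cndp1, for a dipeptidase, had 9.4 and 11 CPM at 7 dpi (at least 33.9-fold higher).

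Of the 15 largest falls, IGFBP2 (ENSDARG00000052470), which binds insulin-like growth factors, had 0.0511 and 0.0518 CPM at 7 dpi, against 11.4 and 10.1 CPM in uninjured hearts, so that 1 count was left in each library at 7 dpi. It was lower by a ratio of 208 (exact 95% counting interval 57 to 1730.0). mt-atp8, a small subunit of ATP synthase encoded beside MT-ATP6, had 3.94 and 3.16 CPM at 7 dpi, against 229.6 and 195 CPM in uninjured hearts. Its deposited TPM was 0 in both libraries at 7 dpi, although these held 77 and 61 counts. In uninjured hearts its TPM was 24244 and 27310. Counts and TPM thus differ on this fall, and its size is not established. leap2, for a peptide that blocks the ghrelin receptor in mammals and is made mainly by their liver and gut, had 2.56 and 2.85 CPM at 7 dpi, against 110.1 and 108 CPM in uninjured hearts. hydin and cfap70, both genes of motile cilia, had 1.89 and 1.04 CPM at 7 dpi, against 31.4 and 37 CPM in uninjured hearts and 0.307 and 0.622 CPM at 7 dpi, against 20.1 and 14.5 CPM in uninjured hearts. ITGA10, a collagen-binding integrin subunit, had 0.716 and 1.04 CPM at 7 dpi, against 14.6 and 12.6 CPM in uninjured hearts. PAOX (ENSDARG00000003380), a polyamine oxidase, was among these genes although the uninjured libraries disagreed, with 0.307 and 0.415 CPM at 7 dpi, against 0.814 and 38.9 CPM in uninjured hearts. It was not called without uninjured replicate 2 (log2 fold change -1.14), 7 dpi replicate 1 (-5.56) or 7 dpi replicate 2 (-5.99), against -5.76 ± 2.28 with all 4 libraries.

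**Figure D3:**
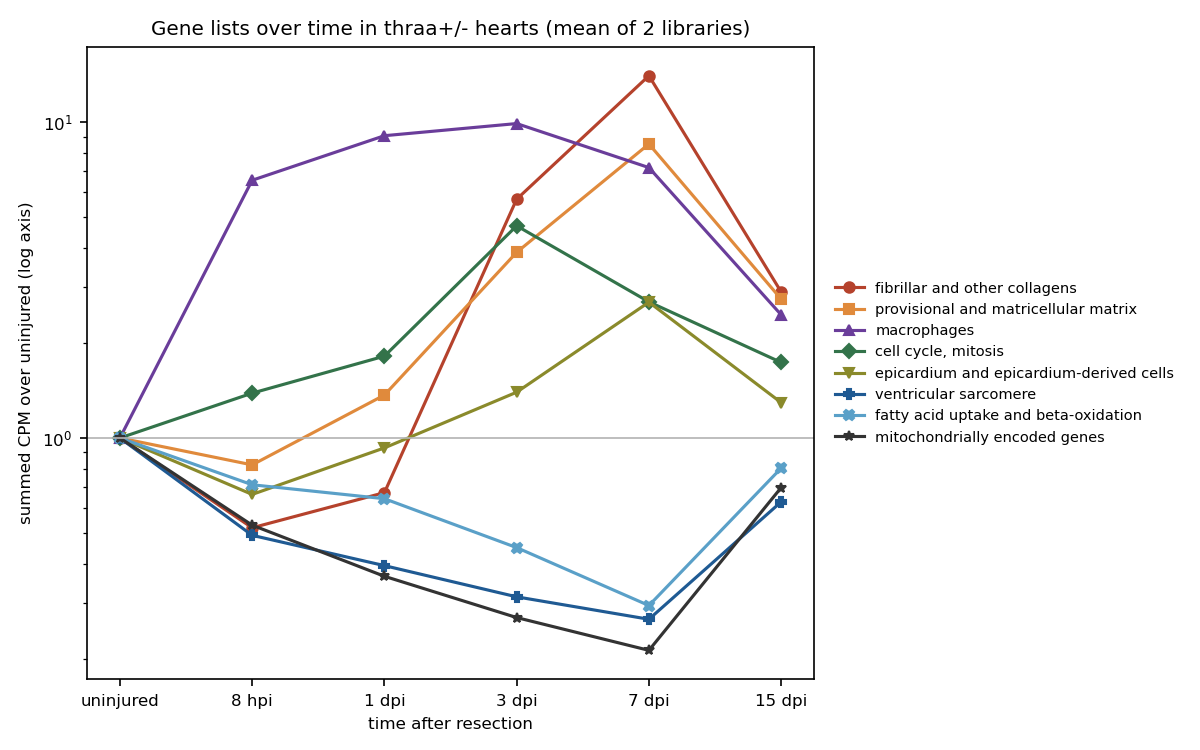
Summed levels of 8 gene lists in thraa+/- hearts without injury and at 8 hpi and 1, 3, 7 and 15 dpi, each as the mean of the 2 libraries divided by the uninjured mean, on a log axis. Collagens and matricellular matrix have their highest point at 7 dpi, macrophage and mitotic genes at 3 dpi, and mitochondrially encoded, sarcomere and beta-oxidation genes their lowest point at 7 dpi.

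Within the time course of the mutant, 7 dpi had the most calls against uninjured hearts. Higher genes numbered 3130 at 8 hpi, 3001 at 1 dpi, 3432 at 3 dpi, 3987 at 7 dpi and 1405 at 15 dpi. Lower genes numbered 2305, 2470, 2258, 2518 and 714 at these times. The distance to uninjured hearts between group means of log2 CPM, over all tested genes, was 191, 197, 194, 195 and 115. By that measure 7 dpi did not stand apart from the earlier times. These comparisons share the uninjured libraries. Against 3 dpi, 1634 genes were higher (9.16% of those tested) and 1120 lower (6.28%) at 7 dpi. Between 15 dpi and 7 dpi, 1547 genes were higher (8.67%) and 2938 lower (16.5%) at 15 dpi.

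Matrix genes had their highest summed level at 7 dpi. Of the collagens, 13 of 19 were higher at 7 dpi than at 3 dpi and none was lower, and 17 were lower at 15 dpi than at 7 dpi. The list summed to 1046 CPM in uninjured hearts, 543 at 8 hpi, 702 at 1 dpi, 5972 at 3 dpi, 14702 at 7 dpi and 3036 at 15 dpi, as means of 2 libraries. Matricellular genes had 19 higher and 2 lower at 7 dpi than at 3 dpi, and 20 lower at 15 dpi than at 7 dpi.

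Mitotic genes had their highest summed level before 7 dpi. At 7 dpi 22 of 65 were lower than at 3 dpi and none was higher, and 54 were lower at 15 dpi than at 7 dpi. The list summed to 346 CPM in uninjured hearts, 1627 at 3 dpi, 934 at 7 dpi and 600.3 at 15 dpi. Replication genes did not follow as clearly, with 1 of 47 lower at 7 dpi than at 3 dpi. Of 43 macrophage genes 5 were lower and 3 higher at 7 dpi than at 3 dpi, where 6.28% and 9.16% of all tested genes were. At 15 dpi 34 of 43 were lower than at 7 dpi, where 16.5% of all tested genes were.

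Muscle and respiration genes had their lowest summed level at 7 dpi. Between 15 dpi and 7 dpi, 13 of 13 mitochondrially encoded genes, 26 of 48 sarcomere genes and 25 of 41 beta-oxidation genes were higher at 15 dpi. Mitochondrially encoded genes summed to 314093 CPM in uninjured hearts, 84726 at 3 dpi, 66696 at 7 dpi and 218730.5 at 15 dpi. Of the epithelial list, 17 of 24 genes were lower at 7 dpi than at 3 dpi. krt5 averaged 3134 CPM at 1 dpi, 3396 CPM at 3 dpi and 4.79 CPM at 7 dpi. Of the 5 genes with the largest falls after 3 dpi, jac4 averaged 207 CPM at 3 dpi and ntrnl2 200.4 CPM, against 0 and 0.0777 CPM at 7 dpi, and the claudin gene cldna averaged 19.2 CPM at 3 dpi and 0 at 7 dpi.

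A factor XIII gene and the clock gene NR1D1 had sharp patterns over time. F13A1 (ENSDARG00000045453) averaged 2.85 CPM in uninjured thraa+/- hearts, 38.4 at 8 hpi, 0.566 at 1 dpi, 0.679 at 3 dpi, 608 at 7 dpi and 15 at 15 dpi. Its rise at 7 dpi over uninjured hearts was 7.73 ± 0.13 on the log2 scale (edgeR adjusted p = 1.49e-34). NR1D1 was instead low at every time after resection, with means of 5.88, 12.9, 6.42, 7.68 and 12.4 CPM from 8 hpi to 15 dpi, against 151 CPM in uninjured hearts.

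The same comparison in WT hearts shows how much of this response was shared. In WT, 4318 genes were higher (24.2%) and 2418 lower (13.6%) at 7 dpi. Calls in the same direction in both genotypes numbered 4263, which is 65.5% of the thraa+/- calls and 63.3% of the WT calls, and 71 genes were called in opposite directions. The difference between the 2 responses was tested gene by gene as an interaction. By the same thresholds 1139 genes had a higher log2 change in thraa+/- than in WT (6.39%) and 1121 a lower one (6.28%).

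A difference in response can lie in the uninjured level, in the level at 7 dpi or in both. Of the 1139 genes with a higher change in thraa+/-, 1047 were lower in both uninjured thraa+/- libraries than in both uninjured WT libraries (91.9%, against 30.9% of all tested genes), and 820 were higher in both thraa+/- libraries at 7 dpi than in both WT ones (72.0%, against 30.7%). These levels are the ones that the test used, so the shares describe the calls and do not support them.

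**Figure D4:**
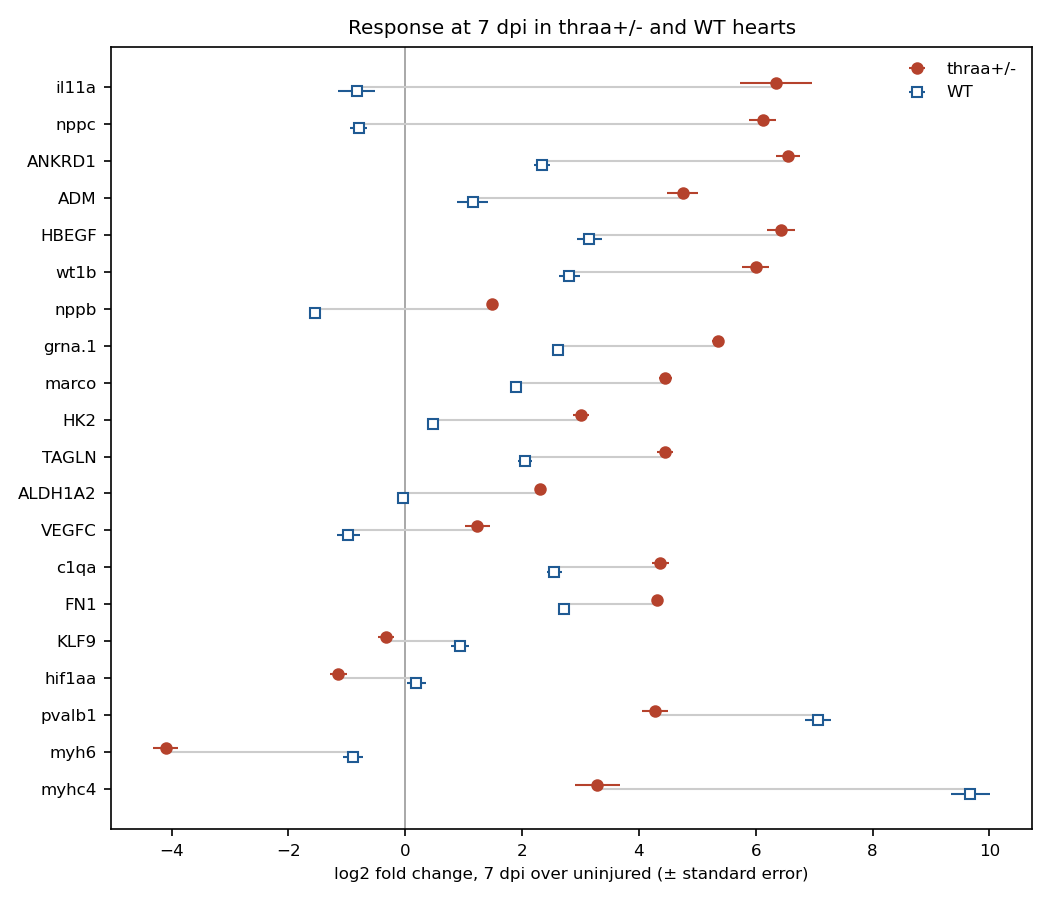
Log2 fold change at 7 dpi over uninjured hearts in thraa+/- (filled circles) and in WT (open squares) for 20 named genes whose 2 responses differed by the interaction test, with standard errors as bars. The genes from il11a down to FN1 lie further right in thraa+/- than in WT, and those from KLF9 down to myhc4 lie further left. Genes with no count in either uninjured library of a genotype are left out, since their fitted changes are no measured size.

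Of the macrophage genes 21 of 43 and of the cytokine list 19 of 59 had a higher response in thraa+/-, with 0 and 1 lower. Of all tested genes 6.39% had a higher response and 6.28% a lower one. grna.1 had 690.4 and 721 CPM at 7 dpi and 17.6 and 16.8 CPM without injury in thraa+/-, against 344 and 348 CPM and 55.6 and 56.9 CPM in WT. The responses differed by 2.74 ± 0.13 on the log2 scale (edgeR adjusted p = 1.25e-20). marco had 172 and 172 CPM in WT at 7 dpi and 43.8 and 48.9 CPM in uninjured WT, and its responses differed by 2.55 ± 0.15. il11a had 9.2 and 8.45 CPM at 7 dpi and 0.204 and 0 CPM without injury in thraa+/-, against 3 and 3.32 CPM and 5.3 and 5.93 CPM in WT, a difference in response of 7.18 ± 0.74 (adjusted p = 1.47e-08) that rests on 2 counts in the uninjured thraa+/- libraries.

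Natriuretic peptide genes differed between the genotypes. nppb had 473 and 497 CPM at 7 dpi and 166 and 179 CPM without injury in thraa+/-, against 441 and 431 CPM and 1285 and 1250.5 CPM in WT. It was called higher in thraa+/- and lower in WT (log2 fold change -1.54 ± 0.08 in WT), and the responses differed by 3.03 ± 0.11 (edgeR adjusted p = 2.75e-24). At 7 dpi the 4 levels lay close together, and the uninjured ones lay far apart. nppc had 38.6 and 39.1 CPM at 7 dpi and 0.509 and 0.593 CPM without injury in thraa+/-, against 9.63 and 9.15 CPM and 16.7 and 15.9 CPM in WT, a difference of 6.91 ± 0.30.

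Epicardial and smooth muscle genes had 8 of 23 and 6 of 18 with a higher response in thraa+/-, and 3 and 1 with a lower one. The shares over all tested genes were 6.39% and 6.28%. ALDH1A2 had 336 and 317 CPM at 7 dpi and 69.5 and 63.2 CPM without injury in thraa+/-, against 228 and 221 CPM and 235 and 226 CPM in WT, a difference of 2.34 ± 0.10 (edgeR adjusted p = 6.54e-23). wt1b had 24.2 and 23.9 CPM in WT at 7 dpi and 2.9 and 3.95 CPM in uninjured WT, and its responses differed by 3.19 ± 0.38. TAGLN (ENSDARG00000045408) had 332 and 327 CPM and 77.4 and 81.5 CPM in WT, a difference of 2.39 ± 0.18. The second WT1 gene (ENSDARG00000031420) went the other way, with a difference of -1.41 ± 0.54 between 3.17 and 5.44 CPM at 7 dpi, against 1.22 and 2.08 CPM in uninjured hearts in thraa+/- and 8.89 and 8.11 CPM and 1 and 1.46 CPM in WT.

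Hypoxia genes had 12 of 31 with a higher response in thraa+/- and 2 with a lower one, against 6.39% and 6.28% of all tested genes. HK2 had 25.6 and 29.5 CPM at 7 dpi and 3.15 and 3.66 CPM without injury in thraa+/-, against 26.8 and 27.3 CPM and 19.6 and 19.1 CPM in WT, a difference of 2.53 ± 0.18 (edgeR adjusted p = 5.38e-15). ADM had 5.79 and 4.9 CPM in WT at 7 dpi and 1.9 and 2.91 CPM in uninjured WT, and its responses differed by 3.59 ± 0.44. hif1aa differed by -1.34 ± 0.22, with 15.1 and 18.9 CPM in WT at 7 dpi and 16.2 and 13.5 CPM in uninjured WT. The response of hif3a (hif1al) was not called as different, at -0.59 ± 0.10 with an adjusted p of 1.81e-05. KLF9 had 34 and 31.8 CPM at 7 dpi and 39.1 and 43.6 CPM without injury in thraa+/-, against 43.7 and 43.2 CPM and 24 and 21.2 CPM in WT, a difference of -1.27 ± 0.21 (adjusted p = 2.55e-05).

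Fast skeletal muscle genes had 13 of 32 with a lower response in thraa+/- and none with a higher one, against 6.28% and 6.39% of all tested genes. pvalb1 had 25.5 and 29 CPM at 7 dpi and 1.53 and 1.28 CPM without injury in thraa+/-, against 111 and 111 CPM and 0.8 and 0.832 CPM in WT, a difference of -2.80 ± 0.46 (edgeR adjusted p = 4.65e-06). myhc4, a fast myosin gene, had 10.6 and 10.0 CPM at 7 dpi and 0.407 and 1.68 CPM without injury in thraa+/-, against 257 and 256 CPM and 0 and 0.624 CPM in WT. The list, most of which was ckma in thraa+/-, summed to 2088 and 2119 CPM in thraa+/- at 7 dpi, against 3263 and 3293 CPM in WT. Without injury it summed to 7744 and 7871 CPM in thraa+/- and 6884 and 7186 CPM in WT, so the sum was lower at 7 dpi in both genotypes.

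Among the genes with the largest differences in response, 4 had no count in uninjured thraa+/- hearts and were counted in uninjured WT hearts. nppal had 64.8 and 64.9 CPM at 7 dpi and 0 and 0 CPM without injury in thraa+/-, against 34.7 and 36.9 CPM and 1.8 and 2.81 CPM in WT. F13A1 (ENSDARG00000094832) had 14.4 and 13.6 CPM at 7 dpi and 0 and 0 CPM without injury in thraa+/-, against 15.4 and 17.4 CPM and 2.4 and 2.08 CPM in WT. nlrc11 had 28.1 and 29.2 CPM at 7 dpi and 0 and 0 CPM without injury in thraa+/-, against 29.4 and 30.3 CPM and 11.6 and 10.8 CPM in WT, so that the levels of both genes after resection lay close together in the 2 genotypes. mxb had 11 and 14.2 CPM at 7 dpi and 0 and 0 CPM without injury in thraa+/-, against 5.42 and 4.84 CPM and 5.3 and 3.75 CPM in WT. F13A1 (ENSDARG00000045453) was also far apart without injury, with 614 and 602 CPM at 7 dpi and 2.65 and 3.06 CPM without injury in thraa+/-, against 697 and 690.4 CPM and 208 and 198 CPM in WT. In the other direction, si:ch211-209l18.4 had 19 and 16.3 CPM at 7 dpi and 21.1 and 22.8 CPM without injury in thraa+/-, against 7.42 and 7 CPM and 0 and 0 CPM in WT, and GDA, for guanine deaminase, had 10.9 and 10.8 CPM at 7 dpi and 0.611 and 0 CPM without injury in thraa+/-, against 20.9 and 19.5 CPM and 0 and 0 CPM in WT.

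Of 19 collagens, 1 had a higher and 1 a lower response in thraa+/-, near the 6.39% and 6.28% of all tested genes. The other matrix lists had larger shares with a higher response. Of 27 collagen processing enzymes 8 had a higher and 0 a lower response in thraa+/-. Of 36 provisional and matricellular genes 8 and 4 did, and of 29 proteases and inhibitors 7 and 1. Of 65 mitotic genes, 13 had a higher and 0 a lower response, and of 47 replication genes 2 and 1 did. The mitotic list summed to 921 and 947 CPM in thraa+/- at 7 dpi, against 727 and 733 CPM in WT. Without injury it summed to 343 and 349 CPM in thraa+/-, against 372 and 379 CPM in WT. Of 85 nuclear oxidative phosphorylation genes, 2 had a higher and none a lower response, and of 13 mitochondrially encoded genes 2 had a lower one. The share of counts on mitochondrially encoded genes was 8.55% and 8.51% at 7 dpi and 21.9% and 21.2% without injury in thraa+/-, against 9.58% and 9.49% at 7 dpi and 14.7% and 14.5% without injury in WT. A gene that misses the threshold of this test is not shown to respond alike in the 2 genotypes.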

How the data were processed

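Pools of at least 5 adult hearts gave each of the 24 time-course libraries, which fall into 12 groups of 2 by genotype and time. The 4 whole-heart libraries of the series were not used here. The authors trimmed the reads with Trim Galore 0.6.10, aligned them with STAR 2.7.9 and deposited RSEM 1.3.3 expected counts and TPM per gene, on GRCz11 per the labels. The annotation release is not given in the sources used here. DESeq2 1.42.0 and HOMER 4.11 are also named in the submitters' processing notes. RSEM shares reads between near-identical genes by estimation, so paralogs with like sequences carry that uncertainty. Between 5.15% and 7.24% of all genes in the count table had an expected count that was not whole in a library. Genes without a count, which are always whole, are included in that share, so it is larger among the genes with counts.

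Expected counts were rounded and tested with edgeR 4.0.16 in R 4.3.3 (robust quasi-likelihood test, filterByExpr, TMM). All 24 libraries were fitted together, so that the 12 groups share the estimate of spread. The variance between the 2 pools of a group, over that of counting, was 2.94 in thraa+/- at 7 dpi and 2.39 without injury. In thraa+/- at 8 hpi it was 20. The filter left out 14683 of 32520 genes. Calls needed a Benjamini-Hochberg adjusted p under 0.05 over the 17837 tested genes and a change of at least 2-fold. The response of thraa+/- against that of WT was an interaction term of the same fit. Library totals lay between 13692204 and 18775025 counts. The counting interval of a single ratio and the limit of 3 counts used for genes at 0 cover counting error only.

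Genes were named by a rule. It took thraa, lead genes of 39 gene lists, the 3 largest called rises and falls of each list with a mean of at least 1 CPM, and the 15 largest rises and falls among genes that have a symbol, average 5 CPM or more and do not overlap between groups. For the other comparisons it took the 5 largest each way. Markers of cell types were set down separately, and the text describes a selection of the genes so named. The gene lists, the markers and the comparison itself were chosen with earlier results of these data known. Of 1341 list entries 1282 were matched to the table, which gave 1387 gene identifiers. Symbols came from a gene name table that covered 29201 of the 32520 genes. In a test on simulated counts for 16280 genes, 200 genes were changed. These were drawn only from genes that averaged more than 5 CPM, and only the groups compared in this report were simulated. By sign and adjusted p, without the fold threshold, the fit of 7 dpi against uninjured found 97% of the 2-fold and 100% of the 4-fold changes. Of the calls that also passed the fold threshold, 3.9% were false. Whether these shares hold for genes at lower levels, or for the real libraries, where far more genes were called, was not tested.

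Alternatives were DESeq2 1.42.0, limma 3.58.1 on log2(TPM + 1) and log2(TPM + 0.1), library totals in place of TMM, other filters on low counts, the adjusted p alone, only the groups compared, the replicate number as a block, and each library left out in turn.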

Additional observations from a re-analysis of the deposited data

Results flagged for a closer look

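The response to resection at 7 dpi differed between thraa+/- and WT hearts by the interaction test of edgeR in 2260 genes. Those whose difference in response is printed above are given here, as the log2 response of thraa+/- less that of WT. The response was higher in thraa+/- for il11a (7.18), nppc (6.91), ADM (3.59), wt1b (3.19), nppb (3.03), grna.1 (2.74), marco (2.55), HK2 (2.53), TAGLN (ENSDARG00000045408, 2.39) and ALDH1A2 (2.34). It was lower in thraa+/- for pvalb1 (-2.80), WT1 (ENSDARG00000031420, -1.41), hif1aa (-1.34) and KLF9 (-1.27). Other genes named in this report were also called, in both directions. Among them were F13A1 (ENSDARG00000045453, 5.96), grna.2 (3.14), myh6 (-3.21) and myhc4 (-6.39). Each of these differences rests on 2 libraries in each of 4 groups, and groups of 2 are too small for a check of single libraries that stand apart.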

How the results depend on the processing

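The 6505 calls of thraa+/- at 7 dpi against uninjured hearts became 6363 with DESeq2, of which 6325 were shared, and between 5936 and 6340 when a library was left out. The lowest and highest counts with a library left out were 6116 and 6437 for WT, 1996 and 2131 for the difference in response, 2262 and 2551 for 7 dpi against 3 dpi, and 3919 and 4219 for 15 dpi against 7 dpi. Requiring at least 10 counts in every library left 10990 genes to test, and the same comparisons then had 3496, 3576, 1461, 993 and 2098 calls. By adjusted p alone they had 10484, 10925, 4696, 7992 and 9163. With limma on log2(TPM + 1), which shrinks the change of genes with few counts, the difference in response had 1287 calls, 7 dpi against 3 dpi had 1204 and 15 dpi against 7 dpi had 2648. With library totals 91.7% of the calls at 7 dpi were higher, against 61.3% with TMM, and 33 of the 39 lists in place of 22 had more genes higher than lower. Totals shift every gene alike, so list medians relative to all genes barely move with them. Other settings turned the side of some list medians. With at least 10 counts in every library the median of fast skeletal muscle genes was -0.55 (5 genes tested), that of the thyroid hormone list -0.085 and that of the liver list 4.30 (1 gene tested), against 3.08, 0.20 and -3.91. With limma on log2(TPM + 1) the natriuretic peptide list (0.36), cardiac transcription factors (0.081), skin (-0.17) and the proteasome (0.13) turned, and with log2(TPM + 0.1) the natriuretic peptide list was at 0.0036. Leaving out a library turned 3 lists whose medians lay close to 0, namely hypoxia (-0.0006), pentose phosphate (-0.031) and thyroid hormone (-0.0085). KLF9 (-0.33 in the report) turned to 0.57 with totals, 0.52 with limma on log2(TPM + 0.1) and 0.50 on log2(TPM + 1), and hif1al (-0.84) turned to 0.055 with totals. Neither was called. Of the 41 called genes whose log2 fold change is printed, 30 kept their call under every alternative that tested them, and 11 lost it under at least 1. Replicate numbers are shared by the groups, but deviations of same-numbered libraries were hardly correlated (Pearson r across genes 0.0168 between thraa+/- groups and 0.00652 between WT groups), so the numbers were not taken as pairs. With the number as a replicate block the 5 comparisons had 6479, 6721, 2245, 2727 and 4454 calls. The promoter motif description that had been planned was not run, because no promoter sequences were used here. Changes of genes with 3 or fewer counts per library in a group are limited by counting error. Ratios with counting intervals are given only for some of them, namely col11a1b, TNC, il11a and IGFBP2. For others, such as THBS4, BMP1, kif11, CLDN5, dkk1b and tnfa, only the levels are given, and the same limit holds. The response of il11a against WT has no counting interval.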
